A study of Mus musculus with 35 samples.

Results

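Aneurysmal aortas of mice infused with angiotensin II (Ang II) for 28 d were compared with those of mice infused for 14 d. The members were chosen by the sample titles alone: 6 arrays titled 28 d and 5 arrays titled 14 d, which makes 11 of the 35 arrays of the series. All mice were male and apoE-/-, so both groups and their saline controls lacked apolipoprotein E, the ligand by which lipoprotein remnants are cleared from blood. Osmotic minipumps were placed under the skin when the mice were 12 to 14 weeks old and delivered Ang II at 1000 ng/kg/min or saline. After perfusion with saline the whole suprarenal segment was taken, and each array holds the RNA of 1 aorta. The labels call both Ang II groups aneurysm and do not say whether any of these aortas had dissected. The other arrays were saline at 7 d (6), 14 d (6) and 28 d (5), Ang II at 7 d without dissection (4) and Ang II at 7 d with dissection (3). Each animal was sampled once, so 14 d and 28 d are different mice.

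Chronic Ang II infusion in apoE-deficient mice is a standard model of abdominal aortic aneurysm. Early in the infusion the medial elastic layers break, blood can enter the wall and macrophages gather in the media and adventitia. Later the wall is rebuilt: fibroblasts and smooth muscle cells lay down collagen and other matrix, while leukocytes, including lymphocytes of the adventitia, can persist. The suprarenal aorta also lies beside the adrenal glands, sympathetic ganglia, lymph nodes and brown and white fat, and an excised segment can carry some of these tissues.

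Each spot on an array gave the ratio of the aorta signal (Cy5 dye) to that of a common mouse reference RNA (Cy3 dye), and all levels below are log2 of this ratio, written as log2 ratio. Levels of different genes cannot be set against each other on this scale. A difference of 1 is a 2-fold difference between 14 d and 28 d, and positive differences mean higher at 28 d. The smooth muscle genes Acta2, Myh11, Tagln, Cnn1, Smtn and Lmod1 were well above background on all 11 arrays, as the tissue label requires. Between 51.1% and 84.8% of spots were well above background in the aorta channel at 14 d and between 52.7% and 59.7% at 28 d, and the value of 84.8% was array 4 of 14 d. The number of arrays limits the precision. The median standard deviation (SD) of a gene was 0.25 at 14 d (n = 5) and 0.30 at 28 d (n = 6). The arrays were scanned on 2 days, and both days held both groups. Bulk tissue cannot tell fewer cells of a type from less RNA per cell.

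No gene passed the test between 28 d and 14 d of Ang II. Of 18687 genes, 0 (0%) had a limma p below 0.05 after Benjamini-Hochberg adjustment over all genes, and the smallest adjusted p was 0.0547, for Spon2. Without adjustment 2896 genes (15.5%) had p below 0.05, of which 1330 (7.12% of all genes) were higher at 28 d and 1566 (8.38%) lower. In 292 genes (1.56%) the 2 groups did not overlap, 116 of them (0.621%) higher at 28 d and 176 (0.942%) lower. Among genes with unadjusted p below 0.05, a difference of at least 2-fold was seen downward in 440 (2.35%) and upward in 70 (0.375%). The split by direction depended on the scaling: 45.9% of the genes with unadjusted p below 0.05 were higher at 28 d here. The share was 44.4% with an offset of 10 in the background correction and 44.2% with median centring. It was 67.5% with the scanner software's processed signals, 65.8% after scale normalization and 65.4% after quantile normalization of the aorta channel. The median over all genes was -0.01, with 47.8% of genes above 0 and 52.2% below. The scanner's processed signals and the deposited series table, which hold the same values, gave 11 genes past the threshold, 10 higher and Spon2 lower. All differences between 28 d and 14 d named below are given as measured values that did not pass the test in the main analysis.

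**Figure D1:**
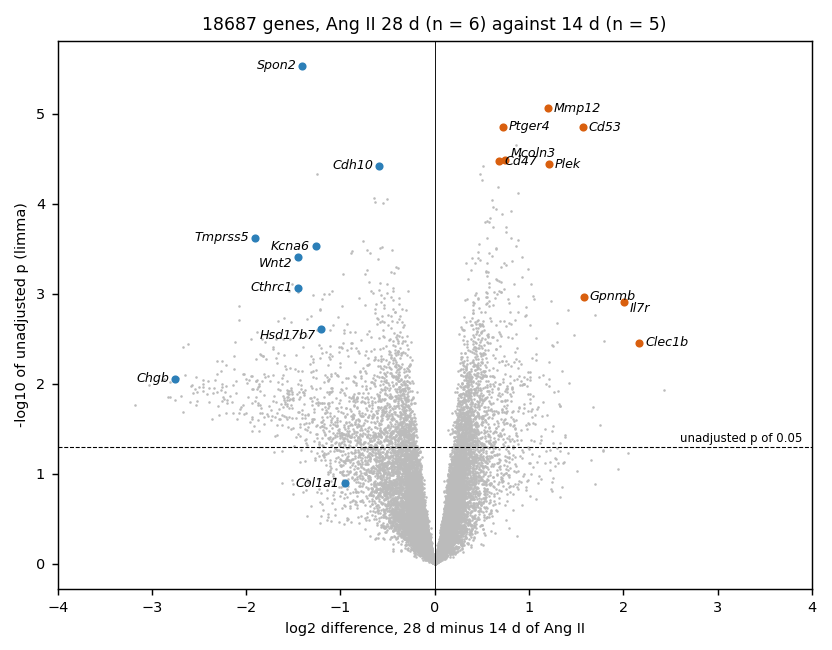
Each point is 1 of 18687 genes, with the log2 difference (28 d minus 14 d of Ang II) on the x axis and -log10 of the unadjusted limma p on the y axis; the dashed line marks an unadjusted p of 0.05. Spon2 has the smallest p, Mmp12, Ptger4 and Cd53 lead on the right, and large negative differences such as that of Chgb (-2.76) have only moderate p-values.

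Mmp12 encodes macrophage metalloelastase, which cuts elastin. Its log2 ratio at 14 d was -0.17, -0.22, 0.00, -0.42 and -0.38, and at 28 d it ran from 0.01 to 1.91 with a median of 1.18. Arrays 1 and 6 of 28 d sat at the level of the highest 14 d array and the other 4 stood well above it, so the groups just failed to overlap. The difference was 1.20 ± 0.23 (SE), a 2.3-fold higher mean (adjusted p = 0.0663). The spot was well above background on 1 of 5 arrays at 14 d and 4 of 6 at 28 d, and the scanner's processed signals, which keep dim spots lower, gave 3.24. Against saline of the same day, Mmp12 differed by 0.05 ± 0.23 at 14 d and by 1.05 ± 0.23 at 28 d (adjusted p = 0.0161). Against saline, 5069 genes (27.1%) passed the test at 7 d, 449 (2.4%) at 14 d and 168 (0.899%) at 28 d.

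Cd53, a tetraspanin found across leukocytes, was -1.00, -1.15, -1.38, -1.17 and -0.71 at 14 d and ran from -0.39 to 1.05 with a median of 0.66 at 28 d. All 6 arrays of 28 d were above all 5 of 14 d, with a difference of 1.57 ± 0.30, or 2.96-fold (adjusted p = 0.0663). Plek, pleckstrin, a protein kinase C substrate of platelets and leukocytes, was -1.53, -1.43, -1.32, -1.44 and -1.15 at 14 d and ran from -0.55 to 0.25 with a median of -0.10 at 28 d. These groups did not overlap either, and the difference was 1.21 ± 0.25 (adjusted p = 0.0708). Ptger4, the EP4 receptor for prostaglandin E2, was -0.30, -0.52, -0.82, -0.99 and -0.48 at 14 d and ran from -0.15 to 0.42 with a median of 0.06 at 28 d. The lowest 28 d array stood above the highest 14 d array, and the difference was 0.72 ± 0.14 (adjusted p = 0.0663). Mcoln3, a calcium channel of endosomes and lysosomes, differed by 0.75 ± 0.15 and was well above background on 1 of 5 and 5 of 6 arrays.

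**Figure D2:**
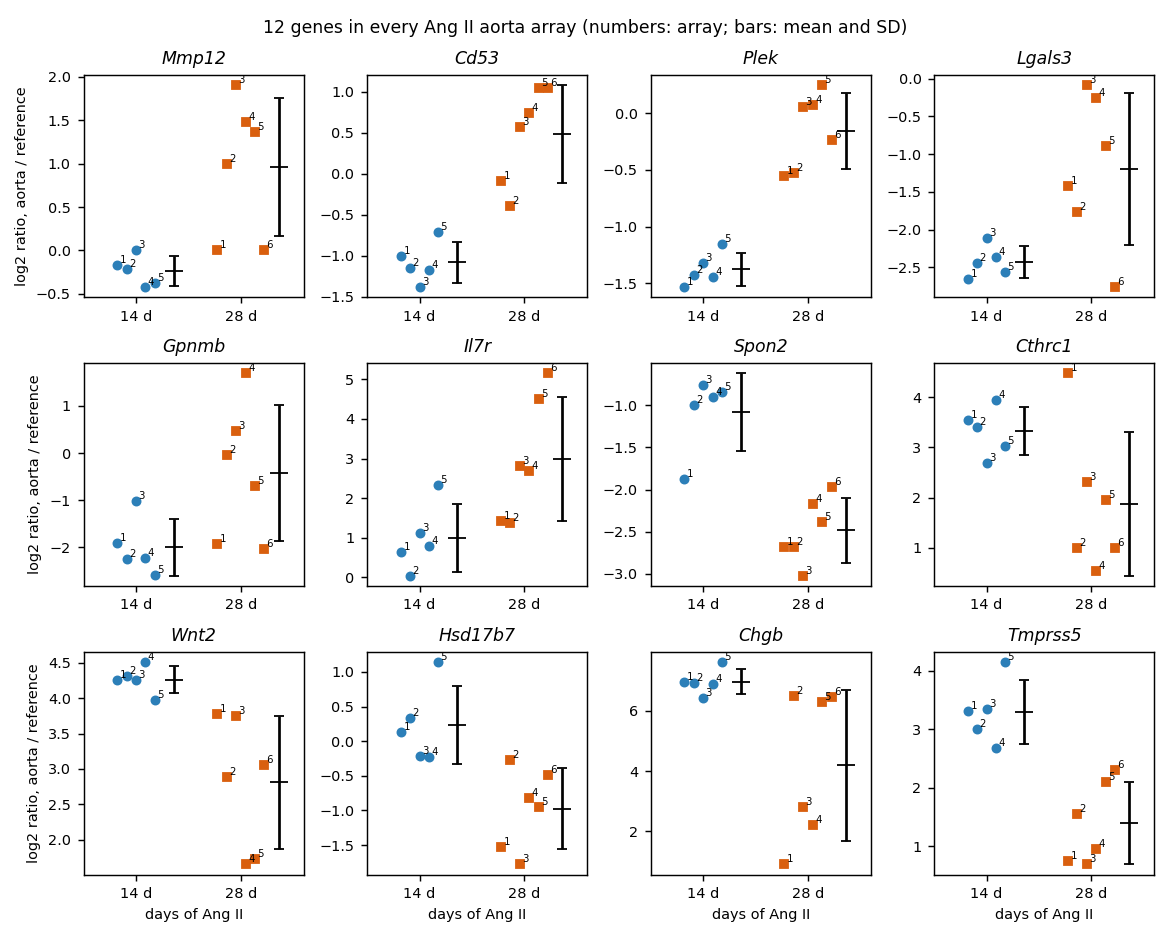
Log2 ratio of aorta to reference for 12 genes in each array (circles, 14 d, n = 5; squares, 28 d, n = 6; small numbers name the array), with bars for mean and SD. Spon2, Wnt2 and Tmprss5 separate the 2 groups downward and Mmp12, Cd53 and Plek upward, whereas Chgb at 28 d falls into 3 low and 3 high arrays.

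The list of 30 monocyte and macrophage genes had a median difference of 0.30, against -0.01 over all genes. Of the 30, 25 were above 0, 10 had unadjusted p below 0.05 upward and 1 downward, against backgrounds of 7.12% and 8.38%, and none passed the adjusted test. The median was 0.10 within scan day 1 and 0.75 within scan day 2, and 0.15 without array 5 and 0.50 without array 2 of 28 d. In saline aortas the same list had a median of -0.34 between 14 d and 28 d. The list's score, its mean log2 ratio with every gene centred over all 35 arrays, was 0.08 to 0.40 at 14 d and 0.57, -0.08, 0.92, 1.03, 1.45 and 0.45 at 28 d, so that 5 of the 6 arrays of 28 d lay above every array of 14 d and array 2 lay below all of them. Its members at unadjusted p below 0.05 upward were Gpnmb, Lgals3, Msr1, Lyz1, Itgax, Mpeg1, Cd68, Cd5l, Lyz2 and Trem2, and Cd163, a scavenger receptor of resident macrophages, was the member downward (-0.76 ± 0.32).

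Lgals3, galectin-3, a lectin abundant in activated macrophages, was -2.66, -2.44, -2.11, -2.36 and -2.56 at 14 d and ran from -2.76 to -0.08 with a median of -1.16 at 28 d. Array 6 of 28 d was below all 14 d arrays and the other 5 were above them, with a difference of 1.23 ± 0.34 (adjusted p = 0.165). Gpnmb, a glycoprotein of lysosome-rich macrophages, differed by 1.58 ± 0.44, with 4 of the 6 arrays of 28 d above all of 14 d and arrays 1 and 6 inside their range. Against saline, Lgals3 differed by 1.67 ± 0.37 at 7 d (adjusted p = 0.00138), by 0.56 ± 0.34 at 14 d and by 2.28 ± 0.34 at 28 d (adjusted p = 0.000842). For Gpnmb the values were 0.20, 0.69 and 1.88, the last with adjusted p = 0.0286. Msr1, a scavenger receptor for modified lipoproteins, differed by 0.88 ± 0.30 between 28 d and 14 d, and Cd68, a lysosomal glycoprotein of macrophages, by 0.82 ± 0.31. Trem2, a lipid-sensing receptor, differed by 0.84 ± 0.40, and Spp1, osteopontin, by 1.76 ± 0.77. Adgre1, which marks resident mouse macrophages, differed by 0.21 ± 0.25 and Ms4a7 by 0.29 ± 0.34.

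Of 32 proteases and inhibitors, 17 were above 0 and 15 below; 4 had unadjusted p below 0.05 upward and 1 downward, against backgrounds of 7.12% and 8.38%, and the median was 0.16 and -0.03 within the scan days. Ctss, cathepsin S, an elastin-degrading cysteine protease of antigen-presenting cells, was -0.13, 0.45, 0.90, 0.62 and 1.50 at 14 d and ran from 1.12 to 3.31 with a median of 1.99 at 28 d. Only array 5 of 14 d reached into the 28 d range, and the difference was 1.48 ± 0.46 (adjusted p = 0.2). Adam8, a membrane protease of leukocytes, differed by 1.06 ± 0.46. Itgb2, the beta chain shared by the leukocyte integrins, differed by 0.96 ± 0.28 (adjusted p = 0.184), and Vcam1, which binds leukocytes on endothelium, by 0.80 ± 0.35. Cybb, the catalytic subunit of the phagocyte NADPH oxidase, differed by 0.76 ± 0.28. The list of 15 adhesion genes had a median of 0.32, with 10 members above 0 and 3 at unadjusted p below 0.05, all higher (background 7.12%). The median was 0.26 and 0.30 within the scan days, and 0.16 without array 4 of 14 d and 0.19 without array 3 of 28 d. The matrix metalloproteinase genes other than Mmp12 gave 0.46 ± 0.32 for Mmp9, -0.41 ± 0.64 for Mmp3, -0.52 ± 0.33 for Mmp2 and -0.69 ± 0.33 for Mmp14.

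Cytokine genes differed little as a list: of 27 tested, 3 had unadjusted p below 0.05, all higher (background 7.12%), and the median was 0.09. Those 3 were Tnf (0.48 ± 0.17), Cxcl12 (0.80 ± 0.28), a chemokine that retains leukocytes and progenitors, and Il1rn (0.68 ± 0.25), the interleukin-1 receptor antagonist. Ccl2 differed by 0.06 ± 0.40, Il6 by -0.09 ± 0.38, Il1b by -0.11 ± 0.43 and Ccl8 by -0.56 ± 0.41. Ccl8 was above saline at both times, by 2.18 at 14 d and 2.40 at 28 d. The interferon response list of 21 genes had a median of -0.03, and the neutrophil list of 13 genes one of 0.08.

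Lymphocyte genes were high in 2 of the 6 aortas of 28 d. The list of 15 B cell and plasma cell genes had a median difference of 1.04, with all 15 above 0 and 4 at unadjusted p below 0.05, all higher (background 7.12%). The score by array was -0.42, -0.22, -0.41, 0.22 and -0.54 at 14 d and 0.33, -0.56, -0.33, -0.20, 2.95 and 2.11 at 28 d. Arrays 5 and 6 of 28 d thus carried the whole difference, and without them the list's median was 0.00. The T cell list of 17 genes scored between -0.19 and -0.08 at 14 d and at 28 d again stood out in array 5 (1.62) and array 6 (1.43), the others lying between -0.33 and 0.03. Its median of 0.60 came to -0.02 without those 2 arrays. The scores of the MHC class II and costimulation list in the same 2 arrays were 1.62 and 1.03, against at most 0.44 in the other 9 Ang II arrays of these days. High scores also occurred without Ang II. The highest saline B cell score was 1.67 at 14 d and 1.15 at 28 d. For T cells it was 1.57 and 0.29, and for MHC class II and costimulation 0.88 and 0.25.

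Cd22, an inhibitory receptor of B cells, was 0.27, 0.10, 0.06, 0.63 and 0.05 at 14 d and ran from 0.48 to 4.30 with a median of 1.42 at 28 d. Arrays 5 and 6 read 4.30 and 3.64, and the difference of 1.80 ± 0.57 (adjusted p = 0.203) was 0.82 without them. Pax5, the transcription factor that sets B cell identity, read 4.03 and 3.57 in those arrays and between -0.05 and 0.97 in the other 4 of 28 d. Glycam1, a ligand for L-selectin made by the high endothelial venules of lymph nodes, read 5.02 and 4.86 there and also 3.34 in array 1 of 28 d, against at most 1.27 at 14 d. Lyve1, a lymphatic vessel marker, was 4.33, 2.83, 3.31, 1.87 and 2.51 at 14 d and 4.85, 2.83, 5.45, 2.22, 4.57 and 4.91 at 28 d. The list of 7 lymph vessel and lymph node genes had a median of only 0.13, with 5 above 0 and 2 below. It had 0 members at unadjusted p below 0.05, against 15.5% of all genes. Glycam1 and Lyve1 had its largest rises, and Reln differed by -0.64 ± 0.42. The part of lymph node tissue in these values was not tested. Il7r, the interleukin-7 receptor of T cells and innate lymphoid cells, behaved less narrowly. It was 0.63, 0.04, 1.13, 0.79 and 2.34 at 14 d and 1.42, 1.36, 2.81, 2.69, 4.51 and 5.15 at 28 d. The difference was 2.01 ± 0.56 (adjusted p = 0.165), and 1.09 without arrays 5 and 6. At 28 d Il7r was above saline by 2.61 (adjusted p = 0.0172).

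The remaining genes that led upward without overlap were Cd47, Usp3, Cnot6l, Abcg3, Zfp930, Tnfaip8, Rsbn1l, Casp8, Elf1 and Tmem123, with differences between 0.50 (Cnot6l) and 0.88 (Tmem123). Cd47, the signal by which cells avoid being engulfed, was -1.28, -1.07, -1.41, -1.41 and -1.28 at 14 d and ran from -0.88 to -0.38 with a median of -0.54 at 28 d. The 2 groups were clearly apart on this probe, by 0.68 ± 0.14 (adjusted p = 0.0708), but the gene's 4 probes ranged from -0.53 to 0.68 and did not run the same way. Casp8, the initiator protease of death receptor signalling, differed by 0.76 ± 0.18 and Tnfaip8, an apoptosis regulator, by 0.65 ± 0.15. Elf1, an Ets transcription factor of lymphoid and endothelial cells, differed by 0.62 ± 0.14. Pcna, the sliding clamp of DNA polymerase, was -2.51, -2.54, -2.88, -2.50 and -2.55 at 14 d and ran from -2.37 to -1.65 with a median of -1.96 at 28 d. Every 28 d array was higher, by 0.58 ± 0.14 on average (adjusted p = 0.131), although scale normalization turned the sign to -0.21. Of 31 cell cycle genes, 28 were above 0 and 3 had unadjusted p below 0.05 upward (background 7.12%), and the median of 0.23 likewise turned to -0.68 with scale normalization. In saline the cell cycle median was 0.44.

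Of 10 platelet genes 7 were above 0, 1 had unadjusted p below 0.05 upward (background 7.12%) and the median was 0.42, or 0.23 without array 5 of 28 d. Clec1b, the podoplanin receptor CLEC-2 of platelets, also found on some myeloid cells, was 0.50, 1.73, 0.66, 0.30 and 0.20 at 14 d and 1.83, 1.30, 2.51, 4.66, 3.88 and 2.92 at 28 d. Array 2 of 14 d alone reached into the 28 d range, and the difference was 2.17 ± 0.69 (adjusted p = 0.203). Of the cytosolic ribosomal protein genes 24 of 26 were above 0 and 1 had unadjusted p below 0.05 upward, with a median of 0.24 that turned to -0.20 with scale normalization. Rpl4 differed by 0.52 ± 0.16.

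**Figure D3:**
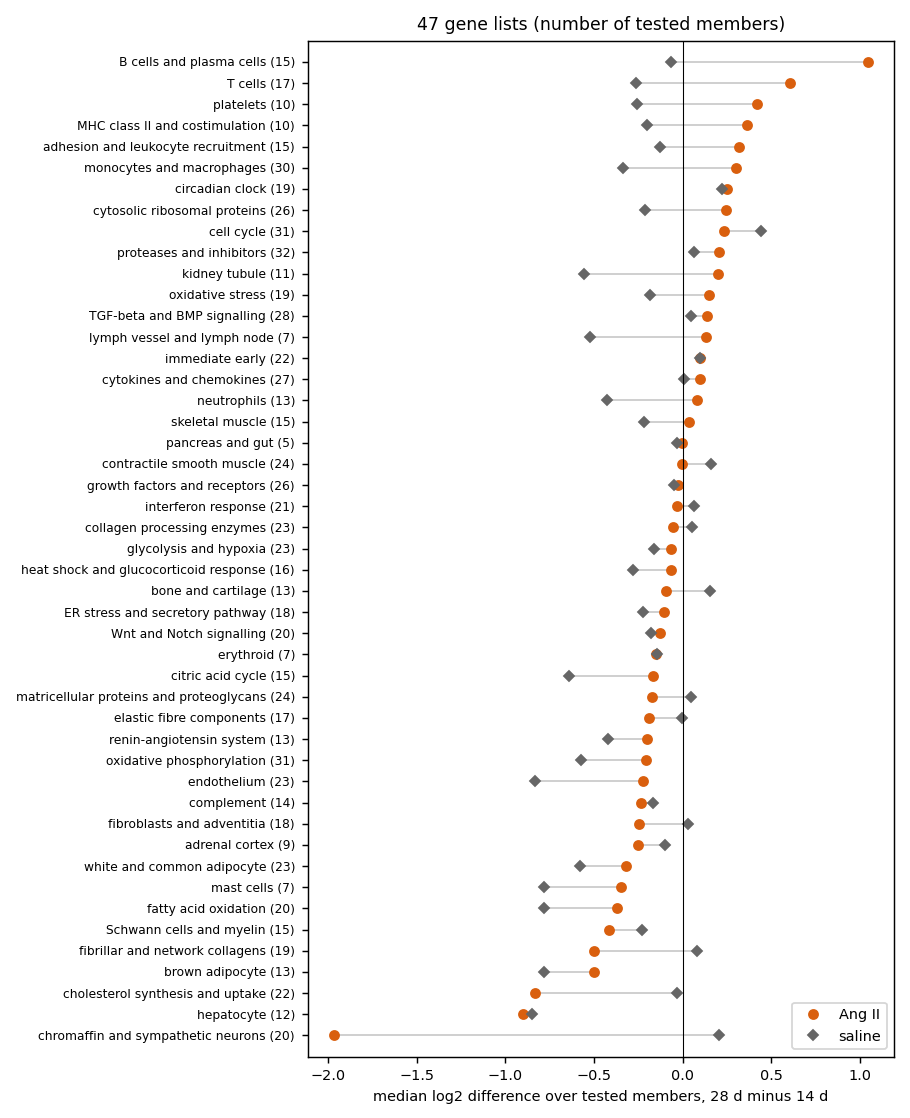
Median log2 difference (28 d minus 14 d) over the tested members of each of 47 gene lists, in Ang II aortas (circles) and in saline aortas (diamonds), with the number of tested members in brackets. The chromaffin and sympathetic, cholesterol and collagen lists lie left of 0 in Ang II and near 0 in saline, while the brown fat and hepatocyte lists lie left in both.

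The gene of smallest p was Spon2. It encodes spondin-2, also called mindin, a secreted matrix protein that binds integrins and takes part in leukocyte recruitment. Its log2 ratio was -1.88, -1.00, -0.76, -0.91 and -0.85 at 14 d and ran from -3.02 to -1.97 with a median of -2.54 at 28 d. All 6 arrays of 28 d lay below all 5 of 14 d, the nearest pair being array 1 of 14 d and array 6 of 28 d. The difference was -1.40 ± 0.25, a 2.64-fold lower mean (adjusted p = 0.0547). It was -1.91 within scan day 1 and -0.96 within scan day 2, and the gene's 2 probes gave -1.40 and -0.85. Over 35 alternative settings the difference ran from -1.91 to -0.96 with adjusted p between 0.0027 and 1, and 10 of them put it past the threshold, among them those without array 1 of 14 d (0.00576), array 5 of 28 d (0.0414) or array 6 of 28 d (0.0149). Against saline Spon2 was higher by 1.63 ± 0.26 at 7 d (adjusted p = 4.64e-05) and by 1.35 ± 0.25 at 14 d (adjusted p = 0.00422), and differed by 0.00 ± 0.25 at 28 d. In saline the gene differed by -0.05 between 14 d and 28 d. The test of the difference between the Ang II and saline changes gave an unadjusted p of 0.000501 and an adjusted p of 0.659.

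Cthrc1 was lower in 5 of the 6 aortas of 28 d than in any of 14 d, with array 1 as the exception. Cthrc1, a secreted protein of activated fibroblasts, was 3.55, 3.41, 2.69, 3.95 and 3.02 at 14 d and 4.48, 0.99, 2.32, 0.54, 1.95 and 1.00 at 28 d. Array 1 of 28 d had the highest value of all 11 and the other 5 were below every 14 d array. The difference was -1.45 ± 0.39 (adjusted p = 0.162). Without array 1 it was -1.97 and passed the test with adjusted p = 0.000202. Within scan day 1 it was -0.46 and within scan day 2 -2.35 (adjusted p = 0.0288). Against saline Cthrc1 was higher by 5.06 at 7 d, by 3.42 at 14 d (adjusted p = 7.64e-06) and by 1.73 at 28 d (adjusted p = 0.023).

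In the collagen list array 1 of 28 d was highest too. Of 19 fibrillar and network collagen genes 18 were below 0, 1 (Col5a3) had unadjusted p below 0.05 (background 8.38%), and the median was -0.50, against 0.08 in saline. The list's score was 0.62, 0.70, 0.89, 1.29 and 0.12 at 14 d and 1.42, 0.00, 0.88, -0.62, 0.45 and -0.72 at 28 d, so the 28 d aortas held both the highest and the lowest values. The median was -0.06 within scan day 1 and -1.02 within scan day 2, and it came to -0.24 without array 4 of 28 d and -0.27 without array 6. Col1a1, a chain of type I collagen, was 2.97, 2.91, 3.52, 4.14 and 2.46 at 14 d and ran from 0.72 to 3.58 with a median of 2.26 at 28 d. The ranges overlapped and the difference was -0.95 ± 0.61 (adjusted p = 0.455). Col1a1 differed from saline by 4.59 at 7 d, by 3.01 at 14 d (adjusted p = 0.00937) and by 1.64 at 28 d (adjusted p = 0.19). Col3a1 differed between 28 d and 14 d by -0.91 ± 0.53 and Col1a2 by -1.11 ± 0.62. Col5a3, a minor fibrillar chain, differed by -1.09 ± 0.30 (adjusted p = 0.162).

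Col8a1 and Timp1, both above saline at 14 d, stood at about the same mean at 28 d of Ang II. Col8a1, a short-chain collagen of injured vessels, differed by -0.06 ± 0.49 between the times and was above saline by 3.03 at 14 d (adjusted p = 0.00146) and 2.90 at 28 d (adjusted p = 0.00177). Timp1, the inhibitor of metalloproteinases, differed by -0.09 ± 0.48 and was above saline by 2.47 and 2.36. Lox, which cross-links collagen and elastin, differed by 0.12 ± 0.41. Fbn1 (-0.24 ± 0.44), Postn (-0.38 ± 0.46), Tnc (0.42 ± 0.36) and Thbs1 (0.61 ± 0.37) had adjusted p above the threshold too. A p that misses the threshold does not show equal levels, and these standard errors leave room for differences in either direction. Of 17 elastic fibre genes, 2 had unadjusted p below 0.05, both lower (background 8.38%): Fbn2, a fibrillin of growing tissue (-0.98 ± 0.32), and Mfap2, a microfibril protein (-1.10 ± 0.42). Eln itself differed by -0.47 ± 0.43.

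Wnt2, a secreted ligand, was 4.26, 4.32, 4.26, 4.51 and 3.98 at 14 d and ran from 1.65 to 3.78 with a median of 2.98 at 28 d. The groups did not overlap, and arrays 4 and 5 of 28 d were lowest. The difference was -1.45 ± 0.37 (adjusted p = 0.137). In saline aortas Wnt2 differed by -1.46 over the same days and passed the test (adjusted p = 0.0288), as did 497 genes (2.66%), 370 of them (1.98%) higher at 28 d and 127 (0.68%) lower, so its difference from saline was 1.56 at 14 d and 1.57 at 28 d. Without adjustment 3043 genes (16.3%) had p below 0.05 in saline. Those 497 calls in saline came to 0 under 10 of the alternative settings. Cilp, a cartilage matrix protein that binds transforming growth factor beta, differed by -1.25 ± 0.38 in Ang II and by -1.09 in saline. Arsi, a sulfatase, differed by -0.97 ± 0.25 and Shroom1, an actin-binding protein, by -0.89 ± 0.22, both without overlap. Sfrp1, a soluble Wnt antagonist, differed by -0.68 ± 0.25, Fst (follistatin) by -0.72 ± 0.24 and Piezo2, a stretch-activated channel, by -0.84 ± 0.26. Ecrg4, a secreted peptide precursor, differed by -1.19 ± 0.53. Scale normalization turned the sign of Sfrp1 to 0.36 and of Ecrg4 to 0.07.

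**Figure D4:**
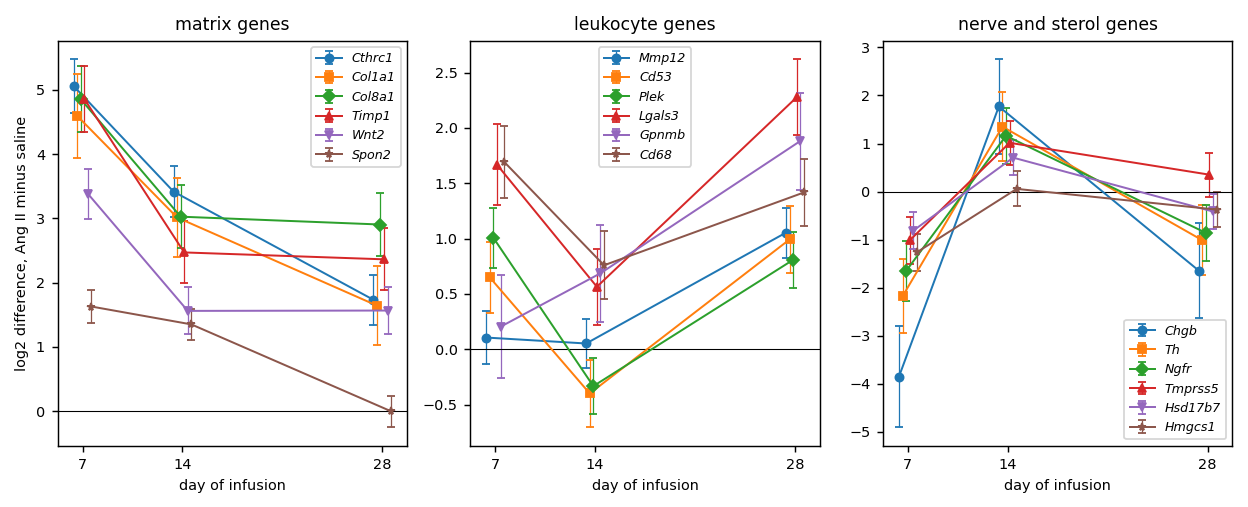
Log2 difference between Ang II and saline aortas of the same day (y axis, bars are standard errors) at 7, 14 and 28 d for 6 matrix, 6 leukocyte and 6 nerve and sterol genes; symbols are shifted slightly sideways. Cthrc1 and Col1a1 step down at each time, Col8a1 and Timp1 stay level from 14 d to 28 d, the leukocyte genes Cd53, Plek and Lgals3 are lowest at 14 d, and Chgb and Th are above 0 only at 14 d.

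The list of 24 contractile genes had a median of 0.00, with 12 above and 12 below 0. None had unadjusted p below 0.05, against 15.5% of all genes. The median was 0.49 within scan day 1 and -0.40 within scan day 2, and its sign changed under 22 of 35 alternative settings. Acta2 differed by 0.40 ± 0.66, Tagln by 0.39 ± 0.78, Cnn1 by -0.11 ± 0.48 and Myh11 by -0.47 ± 0.37. Acta2 ran from 0.37 to 2.31 at 14 d and from 0.88 to 3.69 at 28 d, and array 3 of 28 d held the highest value of both Acta2 and Tagln.

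The largest differences of any list were in genes of chromaffin cells and sympathetic neurons, which make and release catecholamines. All 20 genes were tested, 19 were below 0 with unadjusted p below 0.05 (background 8.38%) and the median was -1.96. The remaining member, Pnmt, differed by 0.01 ± 0.13. Chgb, chromogranin B of secretory granules, was 6.95, 6.90, 6.42, 6.89 and 7.60 at 14 d and 0.91, 6.48, 2.82, 2.22, 6.29 and 6.45 at 28 d. Arrays 1, 3 and 4 of 28 d were low, and arrays 2, 5 and 6 lay near the lowest 14 d array, so the difference of -2.76 ± 0.99 (adjusted p = 0.226) is a mean over 3 low and 3 high arrays. Th, tyrosine hydroxylase, which makes dopa, was between 4.01 and 4.53 at 14 d and read 0.14, 3.74, 1.32, 0.78, 3.92 and 3.86 at 28 d, with the same 3 arrays low. Chga (-2.13 ± 0.74), Scg3 (-2.27 ± 0.79) and Stmn2 (-2.65 ± 0.93) followed.

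The list's score was 1.50, 1.25, 0.74, 1.11 and 2.09 at 14 d and -2.32, 0.92, -1.55, -1.85, 0.62 and 0.77 at 28 d. Saline aortas of both days scored from -1.23 to 1.48. Against saline, Chgb was lower, with -3.85, at 7 d (adjusted p = 0.00746), and differed by 1.77 at 14 d and -1.64 at 28 d. The defining markers of kidney tubule (Umod, Slc34a1, Lrp2 and Cdh16) were well above background on at most 1 array per group. The adrenal cortex markers were mixed. Star was well above background on 5 arrays at 14 d and 4 at 28 d, and the steroid enzyme Cyp11a1 on 2 and 0. Cyp11b1 was so on 0 arrays at either time. How much ganglion or adrenal medulla came with each aorta was not tested.

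Tmprss5, spinesin, a serine protease of the nervous system, was 3.32, 3.00, 3.35, 2.68 and 4.15 at 14 d and ran from 0.69 to 2.31 with a median of 1.25 at 28 d. The groups did not overlap, arrays 1, 3 and 4 were again the lowest of 28 d, and the difference was -1.90 ± 0.46 (adjusted p = 0.131), with -1.24 in saline. Kcna6, a voltage-gated potassium channel, was 5.19, 4.79, 4.58, 4.73 and 4.91 at 14 d and ran from 2.76 to 4.27 with a median of 3.70 at 28 d. Here too every 28 d array was lower, arrays 1, 3 and 4 the most, with a difference of -1.26 ± 0.31 (adjusted p = 0.131), although scale normalization brought the difference to 0.03. Plxna4, a semaphorin receptor of axons, differed by -0.74 ± 0.19 and Cdh10, a neuronal cadherin, by -0.59 ± 0.12. Of 15 Schwann cell genes 5 had unadjusted p below 0.05 and were lower (background 8.38%), among them Ngfr, the neurotrophin receptor p75 (-1.62 ± 0.58), and S100b (-0.84 ± 0.31). The median was -0.41 in Ang II and -0.23 in saline. The score over these 15 genes was lowest at 28 d in the same arrays 1, 3 and 4, and so was Ngfr, at 1.67, 3.07 and 2.50.

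Agtr1a encodes the type 1 receptor through which Ang II acts on vascular and adrenal cells. It was 5.73, 4.55, 3.67, 3.79 and 5.99 at 14 d and 2.87, 4.77, 2.01, 1.88, 2.61 and 3.73 at 28 d. Only arrays 2 and 6 of 28 d fell within the 14 d range, and the difference was -1.77 ± 0.74 (adjusted p = 0.259), with -0.97 in saline. Of 13 renin-angiotensin genes 2 had unadjusted p below 0.05, both lower (background 8.38%). With the scores of neighbouring tissues (kidney tubule, adrenal cortex, chromaffin and sympathetic, hepatocyte and brown fat) together as covariates, the Agtr1a difference was 0.02. The part of each score in that change was not tested. The chromaffin score itself differed between the times, with means of 1.34 at 14 d and -0.57 at 28 d, so this fit cannot separate it from time.

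Cholesterol synthesis genes were lower as a list. Cells short of sterol release the transcription factor SREBP-2 from the endoplasmic reticulum, and it switches on the enzymes of the mevalonate and sterol pathway. All 22 genes of the list were below 0, 14 had unadjusted p below 0.05 (background 8.38%) and the median was -0.83, against -0.03 in saline. The median was -0.90 and -0.65 within the scan days. The list's score was 0.55, 0.93, 0.16, 0.30 and 1.01 at 14 d and -0.66, 0.46, -0.97, -0.11, -0.37 and 0.28 at 28 d, so arrays 2 and 6 of 28 d lay among the 14 d arrays and the other 4 below them. Arrays 1 and 3 of 28 d, among the lowest in the chromaffin score, were the lowest here as well. Array 4, at -1.85 in the chromaffin score, read -0.11 here, and array 5, at 0.62, read -0.37. With the chromaffin score as a covariate the list's median was -0.20, a setting chosen after the data were seen. That score itself differed between the times, with means of 1.34 at 14 d and -0.57 at 28 d, so this fit cannot separate it from time. A link between the 2 lists was not tested.

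Hsd17b7, a sterol ketone reductase, was 0.13, 0.34, -0.22, -0.23 and 1.14 at 14 d and ran from -1.78 to -0.27 with a median of -0.88 at 28 d. Its groups did not overlap, and the difference was -1.20 ± 0.36 (adjusted p = 0.195). Mvd, which makes isopentenyl diphosphate, differed by -1.02 ± 0.30 and Sqle, squalene epoxidase, by -1.17 ± 0.53. Hmgcs1, the synthase that makes hydroxymethylglutaryl-CoA, differed by -0.88 ± 0.37. None of the 22 passed the test against saline at 14 d or at 28 d.

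A sterol regulatory element, TCACNCCAC, was looked for on both strands of RefSeq promoter windows (GRCm38.p6, 250 bases before to 50 after the start), of which 14 of the 22 genes had one or more. This search had been planned for genes past the test, so it is given here only as a description. The element was found in the window of 1 of the 14 genes, Hmgcs1, and in 1.44% of all 27025 genes with a window, and 14 of 22 matched genes are too few for a share of the list. The Hmgcs1 window lies at chr13:119690101-119690400 on the plus strand and is shown because this gene of the list carries the match, in capitals, starting at base -137 relative to the start site.
Hmgcs1 promoter: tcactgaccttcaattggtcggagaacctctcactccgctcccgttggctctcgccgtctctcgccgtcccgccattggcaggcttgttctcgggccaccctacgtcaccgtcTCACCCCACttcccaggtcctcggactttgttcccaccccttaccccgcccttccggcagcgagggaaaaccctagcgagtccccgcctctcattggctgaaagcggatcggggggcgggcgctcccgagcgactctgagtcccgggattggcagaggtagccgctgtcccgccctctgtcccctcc
A match of letters is not a bound site, and the other windows lack only these letters in these 300 bases.

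**Figure D5:**
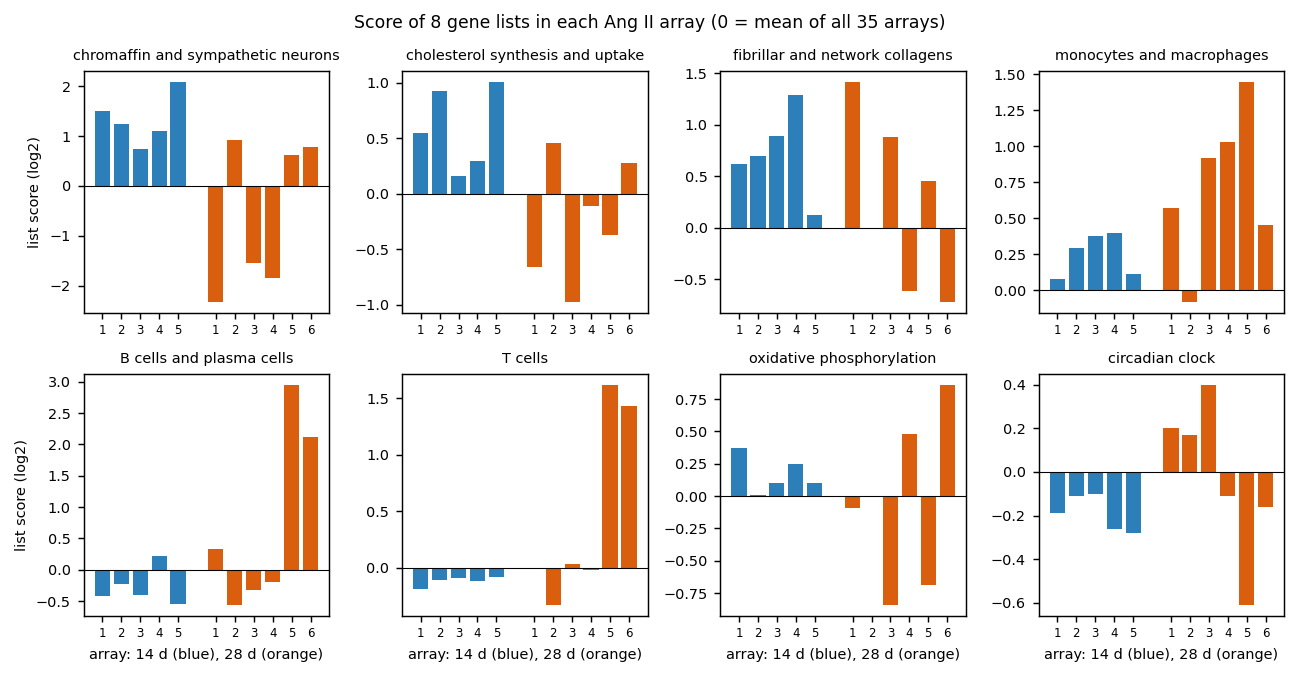
Score of 8 gene lists in each Ang II array (14 d arrays 1 to 5, 28 d arrays 1 to 6; y axis, mean log2 ratio of the list with every gene centred over all 35 arrays). Chromaffin genes are low in arrays 1, 3 and 4 of 28 d, lymphocyte genes are high in arrays 5 and 6, and collagen and oxidative phosphorylation genes scatter more at 28 d than at 14 d.

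The energy metabolism scores varied more between aortas at 28 d than at 14 d in Ang II and in saline alike. The SD of the oxidative phosphorylation score was 0.14 at 14 d and 0.65 at 28 d in Ang II, and 0.42 and 1.09 in saline, and that of the fatty acid oxidation score 0.15 and 0.65 in Ang II and 0.35 and 1.31 in saline. A wider spread at 28 d was not confined to these lists. In Ang II the SD went from 0.42 to 0.84 for the collagen score and from 0.15 to 0.53 for the macrophage score. It went down for some others, such as the hepatocyte score (1.54 to 0.59). These spreads were not tested against each other. The oxidative phosphorylation score was between 0.01 and 0.37 at 14 d and read -0.09, -0.01, -0.84, 0.48, -0.69 and 0.86 at 28 d, with arrays 3 and 5 low and arrays 4 and 6 high. In the fatty acid oxidation and citric acid cycle scores arrays 3 and 5 of 28 d were again the lowest of that group and arrays 4 and 6 the highest. The list medians were -0.21 for 31 oxidative phosphorylation genes, -0.37 for 20 fatty acid oxidation genes and -0.17 for 15 citric acid cycle genes. In these lists 1, 0 and 0 members had unadjusted p below 0.05, against 15.5% of all genes. The medians in saline were -0.57, -0.78 and -0.64. Scale normalization gave 0.23, 0.51 and 0.30 in Ang II. The 13 brown fat genes had a median of -0.50 in Ang II and -0.78 in saline, the 23 adipocyte genes -0.32 and -0.58, and the 23 endothelial genes -0.23 and -0.83; scale normalization turned the Ang II values to 0.64, 1.06 and 0.74. Ucp1, the uncoupling protein of brown fat, was well above background on all 11 arrays and differed by -0.39 ± 0.45.

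Of 19 circadian clock genes 12 were above 0 and 7 below, and 3 had unadjusted p below 0.05, against 15.5% of all genes. The median was 0.25, and 0.41 and -0.16 within the scan days. The 3 members of smallest p were Nr1d2, Arntl and Per3. Nr1d2, the nuclear receptor Rev-erb beta, was -1.46, -1.32, -1.23, -1.70 and -1.08 at 14 d and 0.81, 0.94, 1.81, -1.38, -1.49 and -0.99 at 28 d. Arrays 1 to 3 of 28 d were above every other array and arrays 4 to 6 lay with those of 14 d. Arntl (Bmal1), whose cycle runs against that of Nr1d2, was 0.75, 0.78, 0.48, 0.80 and -0.03 at 14 d and -0.31, -0.73, -1.25, 0.14, -0.10 and 0.59 at 28 d. It was lowest in the same 3 arrays, and Per3 was highest in them (-0.14, -0.01 and -0.08). The differences were 1.31 ± 0.49 for Nr1d2, -0.83 ± 0.38 for Arntl and 0.50 ± 0.24 for Per3, and saline gave 1.02, -1.14 and 0.82. Arrays 1 to 3 of 28 d were scanned on day 1 and arrays 4 to 6 on day 2. The 2 arrays of 14 d scanned on day 1 read -1.32 and -1.23 for Nr1d2. The parts of scan day and of the hour of tissue collection were not tested. Hspa8, a constitutive heat shock protein, differed by -0.70 ± 0.19 without overlap and by -0.63 in saline.

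Genes of other organs were high in single arrays, and how much of those tissues was excised was not tested. Array 2 of 14 d read 4.42 for Hsd3b1 and 3.15 for Star, enzymes and transporters of steroid-making cells, against at most 0.55 in the other 10 arrays. The same array read 6.89 for Apob and 3.35 for Ttr, proteins secreted by liver. Hsd3b1 was not well above background on any 28 d array, where its measured mean was 0.01 against 1.01 at 14 d. On aorta-channel signals, with the lowest signal well above background as a floor, it was at least 1.97-fold lower at 28 d. That bound rests on array 2 of 14 d. The hepatocyte list of 12 genes had a median of -0.90 in Ang II and -0.85 in saline; without array 2 of 14 d it was -0.21 in Ang II. Skeletal muscle scores were 1.95 and 2.65 in arrays 1 and 2 of 14 d and 2.31 and 3.15 in arrays 1 and 5 of 28 d, and between -0.95 and 0.54 in the others. Leaving out arrays 2 and 4 of 14 d gave 0 genes past the threshold, as with all arrays.

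Whether the 28 d minus 14 d change differed between Ang II and saline was tested for every gene in the same limma fit. No gene passed (0 of 18687, 0%), the smallest adjusted p being 0.659, and 1358 genes (7.27%) had unadjusted p below 0.05. The unadjusted p of this test was 0.000128 for Cd47, whose change was larger by 0.87 in Ang II. For Casp8 it was 0.00126, for Lgals3 0.00138 and for Pcna 0.000943. The medians of this difference were 0.71 for the macrophage list, 1.09 for the B cell list, -2.13 for the chromaffin list, -0.66 for the cholesterol list and -0.50 for the collagen list. At 14 d, 210 genes (1.12%) were higher and 239 (1.28%) lower than saline by that test, and at 28 d 156 (0.835%) were higher and 12 (0.0642%) lower.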

How the data were processed

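RNA of 35 suprarenal aortas, 1 per array, was hybridised with a common mouse reference on 2-colour Agilent arrays, aorta in Cy5 and reference in Cy3 on every array, so a dye bias does not cancel within a level. The deposited scanner files hold spot intensities, and the log10 ratio of the processed intensities, from Agilent Feature Extraction 9.5.3.1, per the file headers. Values of the series table, as deposited, are log2 of the same processed ratio, aorta over reference, to within 5e-08, and the medians of its columns run from -0.0675 to 0.109.

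Mean spot intensity and median local background were corrected with normexp (offset 50) and normalized by loess within each array, with control and non-uniform spots at weight 0 (limma 3.58.1, R 4.3.3). Spots of a probe were averaged, and each gene was represented by its brightest probe well above background in the aorta channel on at least 3 arrays, which left 18687 genes. Gene names came from RefSeq for 24375 probes by accession, 6301 by current symbol and 2426 by older symbol, and 8072 kept the name in the files. The limma model had 7 group means over all 35 arrays (28 residual degrees of freedom), so the spread is shared with groups not compared here. Adjusted p is Benjamini-Hochberg over all genes tested, with a threshold of 0.05, and p-values are two-sided. A bound against a group not well above background uses the lowest signal among probes well above background on each array. The model was tested on simulated data.

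Genes named are the 15 of smallest p in each direction among those whose groups do not overlap, since none passed the test, the 3 members of smallest p of each of 47 lists, and a fixed set of vascular genes. Smtn, Lmod1, Lrp2 and Cdh16 are marker genes of the tissue checks. Cd163, Cd5l, Itgax, Lyz1, Lyz2, Mpeg1, Hmgcs1, Sqle and Pnmt are outside this rule and were chosen after their values were seen. Some genes are not reported here. The comparison, its gene lists and these rules were chosen with earlier results of these data known. Same-numbered arrays of the 2 groups did not correlate above 0.1 in every pair (0.04 to 0.15), so the numbers were not used as pairs. Alternatives covered background correction, normalization, the dim-probe filter, probe choice, the model, slide, scan day, covariates and leaving out each array.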

Additional observations from a re-analysis of the deposited data

Results flagged for a closer look

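In 15 of 228 groups of per-array values, 1 array lay far from the rest of its group by Dixon's criterion, which chance meets in about 1 of 20 groups. Array 2 of 14 d gave 6 of them: Hsd3b1 at 4.42 (next 0.44), Star at 3.15 (next 0.55), Ttr at 3.35 (next 0.45), Apob at 6.89 (next 1.18), Shroom1 at 2.02 (next 1.04) and Usp3 at -1.26 (next -1.52). Array 1 of 14 d stood apart for Spon2 at -1.88 (next -1.00). Array 4 of 14 d did so for Rsbn1l at -1.35 (next -0.76) and Glycam1 at 1.27 (next 0.20). Pcna read -2.88 in array 3 of 14 d (next -2.55) and Cnn1 read 3.79 in array 5 of 14 d (next 4.86). At 28 d, array 2 read 0.80 for the kidney tubule gene Umod (next 0.12) and 1.16 for Slc34a1 (next 0.11), and array 3 read 4.78 for Tagln (next 2.91). Array 5 of 28 d read 1.26 for Inhbb (next -0.34).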

How the results depend on the processing

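The count of genes past the threshold between 28 d and 14 d of Ang II was 0 in 22 of 35 alternative settings, among them the replicate block, which pairs arrays of the same number (0 genes), so the block changed no call. It was 11 with the scanner software's processed signals and with the deposited series table, 5 with quantile normalization of the aorta channel, and 1 with a filter of 5 of the 11 arrays and with slide as a random block. Within scan day 1 it was 1 and within scan day 2 it was 6. Leaving out 1 array gave 0 to 6 genes: 6 without array 1 of 14 d, 2 without array 1 of 28 d, 4 without array 5 and 2 without array 6. Of the settings chosen after the data were seen, B cell and T cell scores as covariates gave 52 and leaving out arrays 5 and 6 of 28 d gave 14. In saline the count of 497 went to 4167 with scale normalization, to 867 with the B cell and T cell covariates, and to 0 with processed signals, median centring, quantile normalization, the series table, slide as a fixed block, neighbouring tissue covariates or either scan day alone. Leaving out 1 saline array gave 0 to 1105. The count for the difference between the Ang II and saline changes was 1 within scan day 1 and 0 to 1 with 1 array left out. The cause of these differences was not tested, except that fewer arrays enter the within-day and leave-out fits. Of 207 named genes 122 kept their sign in every setting, as did 7 of 47 list medians. Among the 30 leading genes 29 did. These were chosen because their groups did not overlap, so leaving out arrays could not turn their sign. Dim probes, such as that of Mmp12, limit the size of a fold.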

Other observations

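The transforming growth factor beta and bone morphogenetic protein list had a median of 0.14 over 28 genes, and 21 of them were above 0; 2 had unadjusted p below 0.05 upward and 1 downward, against backgrounds of 7.12% and 8.38%. Inhbb, the beta B chain of inhibins and activins, was -1.48, -1.17, -1.23, -1.14 and -1.01 at 14 d and ran from -0.99 to 1.26 with a median of -0.60 at 28 d, with a difference of 0.86 ± 0.29. Of 20 Wnt and Notch genes 5 had unadjusted p below 0.05, all lower (background 8.38%), among them Wnt2 and Sfrp1, whose values are given above. The hypoxia and glycolysis list of 23 genes had a median of -0.06, with 3 members at unadjusted p below 0.05, all lower (background 8.38%). None of these genes passed the adjusted test in limma.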
